A study of Mus musculus with 15 samples.

Results

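The genes described here are 10 members of the Klotho and fibroblast growth factor (FGF) signalling system, chosen by symbol from the 24421 genes of the count table. They are the Klotho co-receptors Kl and Klb, the receptors Fgfr1, Fgfr2 and Fgfr3, the receptor-like Fgfrl1, the carrier Fgfbp1 and the ligands Fgf1, Fgf2 and Fgf7. Their transcripts were counted by RNA-seq in 15 libraries of primary proximal tubule cells, taken from kidneys of C57BL/6 mice and passaged 1 time in culture. The mice were male or female and either Diet1+/+ (WT) or Diet1-/- (KO), which gave 4 libraries of Male WT cells, 3 of Male KO, 4 of Female WT and 4 of Female KO. Diet1 encodes a protein of small intestine and kidney which changes bile acid levels. The labels name no tissue or cell type to which its loss is restricted. The age of the mice and any treatment are not given in the sources used here. Cells of 3 to 4 mice were pooled for a group, per the labels, and the pool was divided into 4 technical replicates. A group is therefore 1 pool of cells, and the p-values measure the spread between libraries of a pool, not between mice.

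FGFs are secreted proteins that act through receptor tyrosine kinases and the RAS and ERK kinase relay. Most of them bind heparan sulfate and act near their source, whereas the endocrine FGF23 and FGF21 bind it weakly and need α-Klotho (Kl) or β-Klotho (Klb) beside the receptor. In the kidney, α-Klotho is known above all from the distal convoluted tubule, with a lower level in the proximal tubule, where FGF23 lowers phosphate reabsorption and vitamin D activation. FGF7 is a stromal factor that acts on the epithelial form of FGFR2.

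Library totals ran from 17648416 to 30896637 counts, and 13912 of the 24421 genes had enough counts to be tested. Of the 10 members, 9 were tested and Klb was not. Levels are given as TMM-scaled counts scaled to a library size of 1e+06 (CPM) ± SD over the libraries of a group, and differences as log2 fold changes ± standard error. A gene was called at an adjusted p below 0.05 over all genes tested in a comparison, with edgeR's quasi-likelihood test and the Benjamini-Hochberg adjustment. Diet1 itself was not analysed here, and the KO labels were therefore not checked against its transcript. Of 18 proximal tubule markers, 6 had at most 3 counts in any library, which were Slc34a1, Slc5a12, Slc22a6, Slc22a8, Slc13a1 and Slc13a3. The endocytic receptors Lrp2 and Cubn were measured, at group means of 12.1 to 20.9 and 5.95 to 6.93 CPM.

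KO against WT was compared within each sex, to see which members differ with the loss of Diet1. In males 7 of the 9 tested members were called, 2 higher and 5 lower in KO. Of all genes tested in males 20.2% were called, 10.1% higher and 10.1% lower. In females 7 of 9 were called as well, 4 higher and 3 lower, where 39.3% of all genes tested were called, 20.7% higher and 18.6% lower. The WT and KO libraries did not overlap for 6 of the 9 in males and 5 of the 9 in females, against 27.7% and 36.1% of all genes tested. The median log2 fold change of the 9 was -0.17 in males and 0.02 in females, beside 0.00 over all genes tested in either sex. The difference between the female and the male effect was called for 4 of the 9, with 2 more positive and 2 more negative in females. Of all genes tested 15.6% were, 9.76% more positive and 5.89% more negative. Since the members were chosen with earlier results of these data known, these shares do not test the set.

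**Figure D1:**
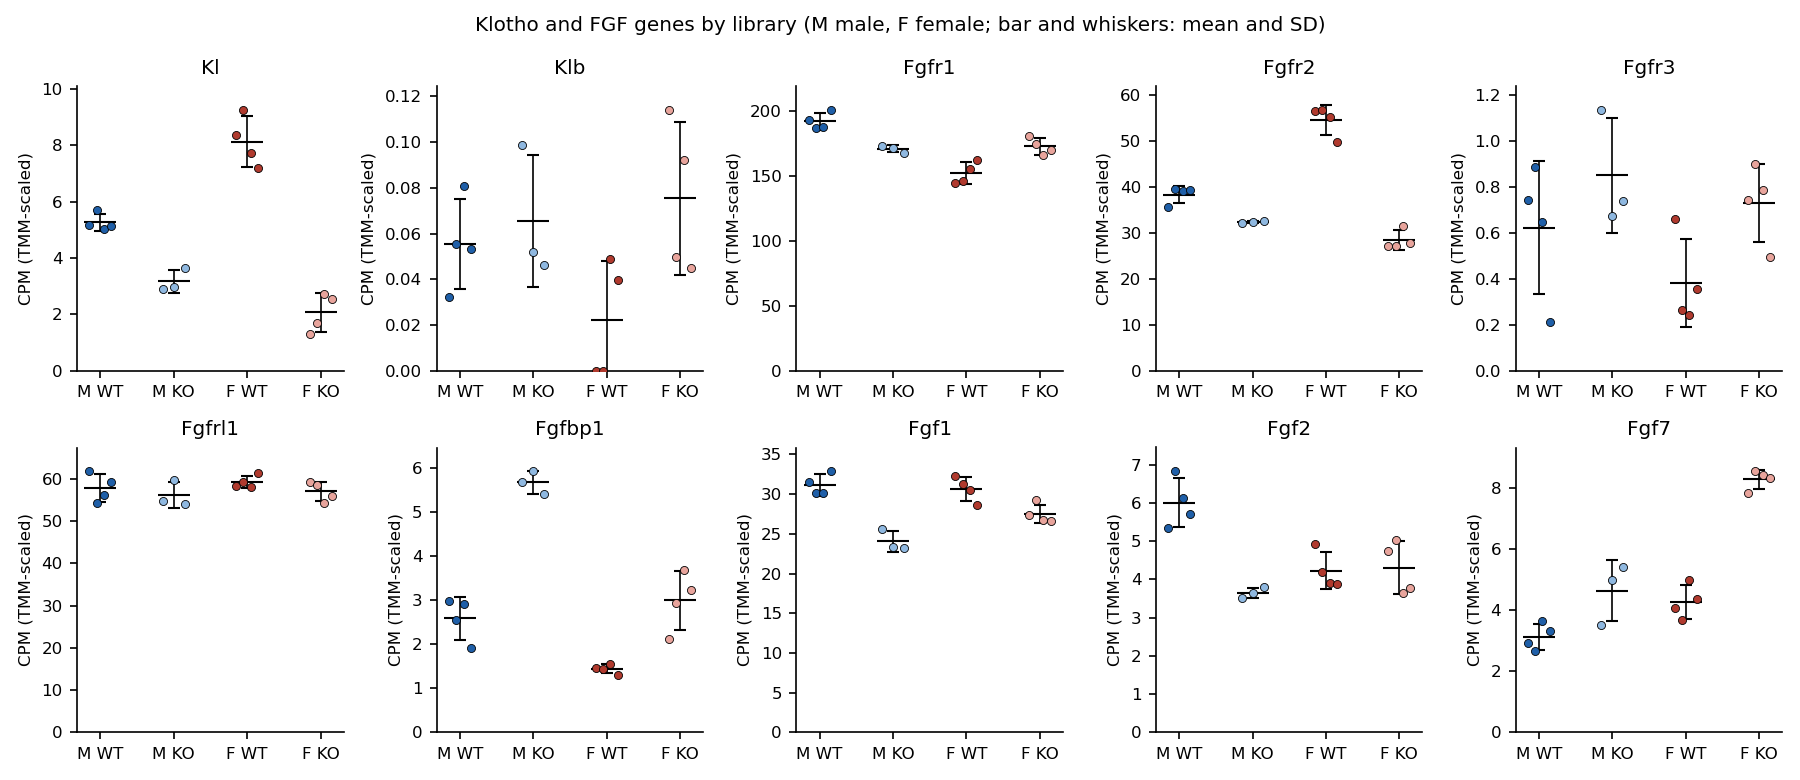
TMM-scaled CPM (vertical axis) of the 10 members in each of the 15 libraries, by group (M male, F female). Points are libraries, and the bar and whiskers are the group mean and SD. Kl and Fgfr2 are highest in Female WT and lowest in Female KO, and Klb stays at 2 counts or fewer.

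**Figure D2:**
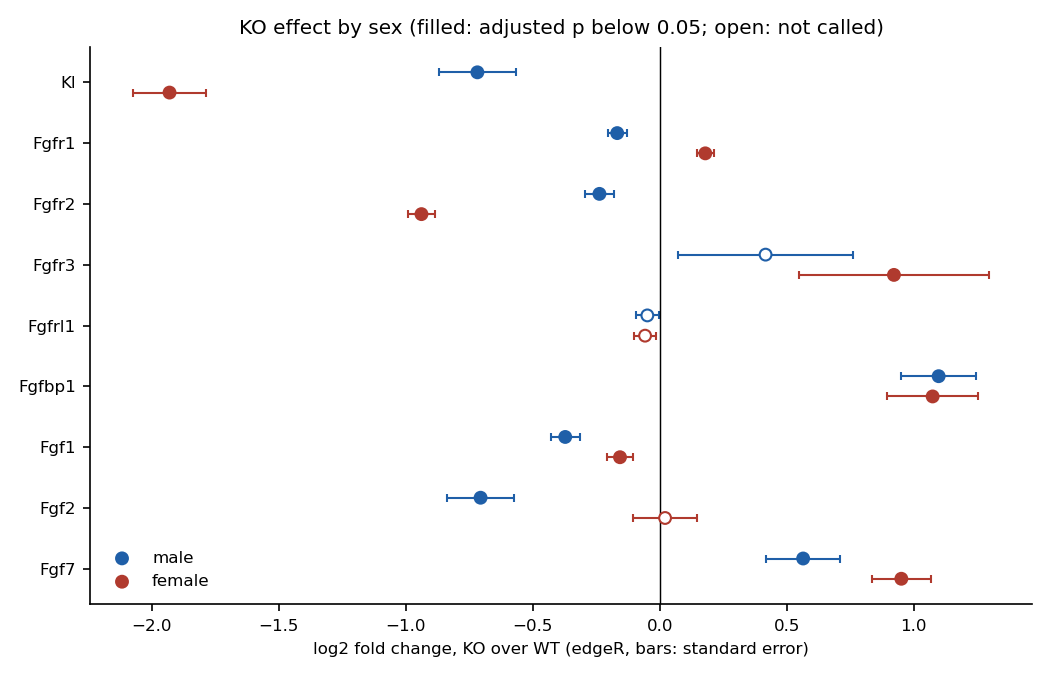
Log2 fold change of KO over WT (horizontal axis) for the 9 tested members in males and females, with standard errors. Filled points passed the adjusted p threshold. Fgfr1 lies on opposite sides of 0 in males and females, and Fgfbp1 at nearly the same place.

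Kl encodes α-Klotho, the co-receptor that makes FGFR1 a high-affinity receptor for FGF23 (GRCm38 chr5:150952607-150993817, plus strand). It fell in KO cells of both sexes, and by more in females. In Male WT the 4 libraries held 5.18, 5.72, 5.05 and 5.12 CPM, and in Male KO the 3 libraries held 2.91, 2.96 and 3.65 CPM. In Female WT the values were 8.36, 9.25, 7.71 and 7.18 CPM, and in Female KO they were 1.31, 1.70, 2.72 and 2.57 CPM. The lowest WT library lay above the highest KO library in each sex, and none of the 4 groups overlapped with another. The fall was -0.72 ± 0.15 on the log2 scale in males (1.64-fold lower, edgeR adjusted p = 6.25e-04). In females it was -1.93 ± 0.14 (3.81-fold lower, edgeR adjusted p = 4.29e-13). The difference between these effects was -1.21 ± 0.22 (edgeR adjusted p = 9.32e-05). In bulk RNA, fewer cells that make a transcript and less of it per cell cannot be told apart. The summed level of 8 distal convoluted tubule markers was lower in KO of both sexes, as Kl was. Of the 5 that were tested, 3 fell in females, and in males the 5 were not called. Of all genes tested 18.6% fell in females and 10.1% in males. In males the sum ranged from 45.1 to 51.9 CPM over WT and 41.0 to 43.9 CPM over KO libraries, and in females from 51.0 to 52.8 CPM over WT and 31.8 to 38.9 CPM over KO libraries. Pvalb was at 0 and Trpv5 at no more than 3 counts in all 15 libraries, Slc12a3 had group means of 0.116 to 0.478 CPM, and the part of these markers in the fall of Kl was not tested. The sums of proximal tubule, collecting duct and fibroblast markers, given below, were lower in KO of both sexes as well.

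Klb, the co-receptor for FGF21 (chr5:65348314-65384007, plus strand), had 0 to 2 counts in each of the 15 libraries. That is at or under the floor of 3 counts, which is 0.0971 to 0.171 CPM here, so no fold is given. Klb transcript was not detectable above counting noise at this depth in any group. Lctl, a Klotho-related gene, had group means of 0.19 CPM or less and was not tested either.

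Fgfr2 encodes a receptor with an epithelial form for FGF7 and a mesenchymal form for other ligands (chr7:130162451-133123350, minus strand). The counts are per gene and do not separate these forms. Its order across groups was the same as that of Kl. Male WT held 35.6, 39.5, 39.1 and 39.3 CPM and Male KO 32.3, 32.5 and 32.6 CPM. Female WT held 56.5, 56.9, 55.4 and 49.9 CPM and Female KO 27.1, 27.1, 31.6 and 27.8 CPM. As for Kl, none of the groups overlapped with another. Fgfr2 fell by 0.24 ± 0.057 on the log2 scale in males (edgeR adjusted p = 0.00237) and by 0.94 ± 0.052 in females, which is 1.92-fold (edgeR adjusted p = 2.82e-16). The female effect was the more negative by -0.70 ± 0.078 (edgeR adjusted p = 3.23e-08). In the annotation Fgfr2 shares 314 exon bases with Ctbp2 on the same strand, 3.04% of its exon length. Ctbp2 rose in KO of both sexes, by 0.10 ± 0.036 in males (edgeR adjusted p = 0.0471) and 0.27 ± 0.034 in females (edgeR adjusted p = 6.74e-08).

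Over the 15 libraries, log2 CPM of Kl and Fgfr2 correlated at Pearson r = 0.94, given as a description, since all points share the 4 pools. The 250 bases before their RefSeq start sites (GRCm38.p6) are shown because both genes take the same order across the 4 groups. Capitals mark GGGCGG or its reverse complement, the GC box. Kl lies at chr5:150952357-150952606 on the plus strand and Fgfr2 at chr7:130266809-130267058 on the minus strand, each written 5′ to 3′ on the strand of the gene. The RefSeq start site of Fgfr2 lies inside the annotated span given above, far from the 5′ end of that span at 133123350.
Kl: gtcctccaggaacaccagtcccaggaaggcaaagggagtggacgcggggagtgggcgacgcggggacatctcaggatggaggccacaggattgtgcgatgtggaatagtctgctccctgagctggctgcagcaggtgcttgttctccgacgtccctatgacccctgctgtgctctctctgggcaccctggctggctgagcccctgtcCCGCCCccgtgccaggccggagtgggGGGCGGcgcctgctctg
Fgfr2: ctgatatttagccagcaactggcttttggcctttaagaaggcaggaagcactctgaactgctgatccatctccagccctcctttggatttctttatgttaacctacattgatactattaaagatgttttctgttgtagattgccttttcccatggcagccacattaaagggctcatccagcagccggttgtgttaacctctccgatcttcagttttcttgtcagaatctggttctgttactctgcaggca
Motifs were searched on both strands of the full windows, from 250 bases before to 50 after the start. They were the TATA box, spelled TATAAA here, and the GC box with the letters GGGCGG. The AP-1 site was taken as TGANTCA and the CCAAT box by the letters of its name, the E-box as the palindrome CACGTG, and the GATA site by the letters AGATAA. For the cAMP response element the letters TGACGTCA were required. GGGCGG occurred 3 times in the Kl window, from positions -43, -17 and 18 relative to the start site, and was not among the letters of the Fgfr2 window. Of 32851 such windows in the RefSeq table, 35.7% held GGGCGG. The Fgfr2 window held CACGTG from position 29, as did 7.15% of windows. The Kl window had a GC content of 67.3% and 19 CpG, the Fgfr2 window 43.7% and 4, beside medians of 52.7% and 7 over the table.

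Fgfr1 encodes the receptor that pairs with α-Klotho for FGF23 (chr8:25513654-25575718, plus strand), and it was the most abundant of the 3 kinase receptors described here. It fell in male KO cells and rose in female KO cells. Male WT held 193, 186, 187 and 201 CPM and Male KO 173, 172 and 168 CPM. Female WT held 144, 146, 156 and 162 CPM and Female KO 180, 174, 166 and 170 CPM. The WT and KO libraries did not overlap in either sex, and both KO groups lay between the WT groups. The log2 fold change was -0.17 ± 0.037 in males (edgeR adjusted p = 9.02e-04) and 0.18 ± 0.034 in females (edgeR adjusted p = 7.34e-05). The effects differed by 0.35 ± 0.050 (edgeR adjusted p = 3.90e-06). These are the smallest called changes among the members apart from that of Fgf1 in females, and of all genes tested 69.8% in males and 60.5% in females changed by as much or less in size.

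Since Fgfr1 and Fgfr2 moved in different directions in females, their levels per exon length were compared within each library, where library scaling cancels. The ratio of Fgfr1 to Fgfr2 (CPM per kb of exon) of male cells was 5.23 ± 0.334 for WT (n = 4) and 5.50 ± 0.111 for KO (n = 3). It was 2.92 ± 0.341 in Female WT (n = 4) and 6.38 ± 0.651 in Female KO (n = 4). The Female WT libraries, at 2.67 to 3.40, lay below all other libraries, and those of Female KO reached from 5.47 to 6.95. Fgfr2 thus made up 25.6% ± 2.09 of the summed Fgfr1, Fgfr2 and Fgfr3 level per length in Female WT, against 16.0% ± 0.834 in Male WT, 15.3% ± 0.278 in Male KO and 13.6% ± 1.27 in Female KO. The exon length is the union over annotated transcripts, so these ratios shift if the cells use shorter forms.

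**Figure D3:**
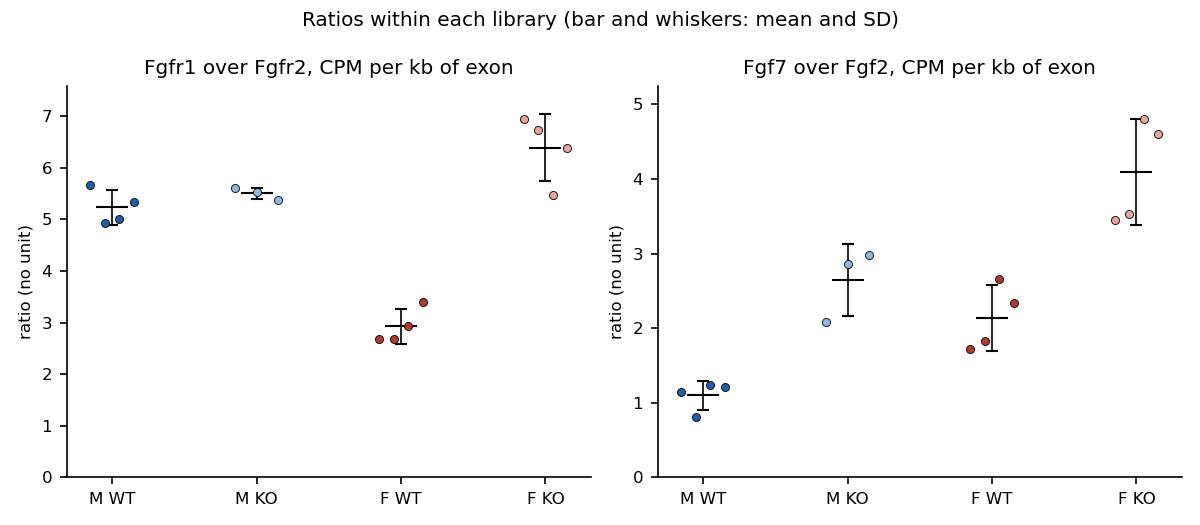
Ratio of Fgfr1 to Fgfr2 (left) and of Fgf7 to Fgf2 (right) within each library, from CPM per kb of exon, by group (M male, F female). Points are libraries, and the bar and whiskers are the group mean and SD. The Fgfr1 to Fgfr2 ratio is lowest in the 4 Female WT libraries, and the Fgf7 to Fgf2 ratio is lowest in Male WT and highest in Female KO.

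Fgfr3, a receptor of the same family (chr5:33721674-33737068, plus strand), had 4 to 23 counts per library and group means of 0.623 ± 0.291 CPM in Male WT, 0.850 ± 0.249 in Male KO, 0.381 ± 0.191 in Female WT and 0.730 ± 0.170 in Female KO. The female log2 fold change of 0.92 ± 0.38 was called (edgeR adjusted p = 0.0493), although the groups overlapped. The male change of 0.42 ± 0.34 was not called (edgeR adjusted p = 0.447). The female call was lost in 12 of 16 alternative settings, DESeq2 and limma-voom among them, where the adjusted p ranged from 0.0153 to 0.136 over the settings in which Fgfr3 was tested.

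Fgfrl1 encodes a receptor-like protein that binds FGFs and lacks the kinase domain (chr5:108692382-108706924, plus strand). Per exon length it was the most abundant member, at a mean of 20.7 CPM per kb over the 15 libraries, followed by Fgfr1 at 17.4. Its group means were 57.9 ± 3.30 CPM in Male WT, 56.2 ± 2.99 in Male KO, 59.2 ± 1.47 in Female WT and 57.0 ± 2.29 in Female KO. The libraries of all 4 groups overlapped. Neither the male difference of -0.05 ± 0.047 (edgeR adjusted p = 0.523) nor the female one of -0.06 ± 0.043 (edgeR adjusted p = 0.305) was called.

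Fgfbp1 encodes a secreted carrier that releases FGFs, FGF2 among them, from heparan sulfate (chr5:43978858-43981779, minus strand). It rose in KO cells of both sexes to about the same extent. Male WT held 2.98, 2.55, 2.91 and 1.92 CPM and Male KO 5.68, 5.93 and 5.41 CPM. Female WT held 1.47, 1.44, 1.56 and 1.31 CPM and Female KO 2.11, 2.95, 3.69 and 3.24 CPM. WT and KO libraries did not overlap in either sex, while Female KO overlapped with Male WT. The log2 fold change was 1.10 ± 0.15 in males (2.14-fold higher, edgeR adjusted p = 7.82e-07) and 1.07 ± 0.18 in females (2.11-fold higher, edgeR adjusted p = 8.40e-06). The effects of the sexes differed by -0.02 ± 0.25, which was not called (edgeR adjusted p = 0.971). Its level rested on 27 to 117 counts per library.

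Fgf7, the keratinocyte growth factor (chr2:126034658-126091185, plus strand), also rose in KO cells of both sexes. Male WT held 2.91, 2.66, 3.63 and 3.31 CPM and Male KO 3.51, 4.99 and 5.41 CPM. Female WT held 4.05, 3.67, 4.98 and 4.36 CPM and Female KO 7.82, 8.54, 8.40 and 8.32 CPM. The 4 Female KO libraries lay above all others, whereas 1 Male KO library lay within the range of Male WT. The log2 fold change was 0.95 ± 0.12 in females (1.93-fold higher, edgeR adjusted p = 4.00e-08). In males it was 0.56 ± 0.14 (1.48-fold higher, edgeR adjusted p = 0.00426), a call that was lost without the third Male KO library (edgeR adjusted p = 0.0756). The gap between the effects, 0.39 ± 0.19, was not called (edgeR adjusted p = 0.177).

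Markers of fibroblasts, a stromal cell type, were also measured. The summed level of 10 fibroblast markers ranged in males from 3433 to 3670 CPM over WT and 1791 to 1979 CPM over KO libraries, and in females from 3569 to 3845 CPM over WT and 2550 to 2779 CPM over KO libraries. This sum was lower in KO of both sexes, and the part of stromal cells in the level of Fgf7 was not tested. Lum had at most 3 counts in any library, whereas Col1a1 had group means of 964 to 1948 CPM.

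The 250 bases before the RefSeq start sites of Fgfbp1 and Fgf7 are shown because both genes rose in KO cells of both sexes. Capitals mark CCAAT or its reverse complement ATTGG. Fgfbp1 lies at chr5:43981800-43982049 on the minus strand and Fgf7 at chr2:126034408-126034657 on the plus strand (GRCm38.p6).
Fgfbp1: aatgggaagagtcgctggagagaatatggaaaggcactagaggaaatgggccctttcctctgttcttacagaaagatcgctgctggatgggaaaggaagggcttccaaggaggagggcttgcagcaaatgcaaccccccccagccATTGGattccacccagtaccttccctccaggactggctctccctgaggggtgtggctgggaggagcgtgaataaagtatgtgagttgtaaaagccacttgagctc
Fgf7: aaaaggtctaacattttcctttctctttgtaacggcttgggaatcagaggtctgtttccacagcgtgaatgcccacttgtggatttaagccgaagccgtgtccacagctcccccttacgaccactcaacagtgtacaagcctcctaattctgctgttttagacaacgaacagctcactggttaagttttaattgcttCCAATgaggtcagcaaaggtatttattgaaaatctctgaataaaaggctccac
The motif began at position -105 for Fgfbp1 and -53 for Fgf7, and 37.4% of the 32851 windows held it. TATAAA occurred from position 4 in the Fgfbp1 window, as in 13.6% of windows, and was not among the letters of the Fgf7 window. In all, 8 of the 10 members matched the RefSeq table, with 9 windows.

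Fgf2, basic FGF (chr3:37348346-37410108, plus strand), fell in male KO cells and showed no called change in females. Male WT held 5.34, 6.83, 6.14 and 5.71 CPM and Male KO 3.51, 3.64 and 3.79 CPM. Female WT held 4.92, 4.20, 3.91 and 3.89 CPM and Female KO 4.74, 5.04, 3.65 and 3.78 CPM. The male groups were apart and the female groups overlapped. The log2 fold change was -0.71 ± 0.13 in males (1.63-fold lower, edgeR adjusted p = 1.36e-04) and 0.02 ± 0.13 in females (edgeR adjusted p = 0.913). The female effect lay above the male one by 0.73 ± 0.18 (edgeR adjusted p = 0.00481). Fgf2 shares 640 exon bases, 9.44% of its exon length, with Nudt6 on the opposite strand. The libraries kept strand, per the labels, but the strand setting of the counting is not given in the sources used here. Nudt6 changed by -0.12 ± 0.13 in males and -0.15 ± 0.12 in females, and neither change was called.

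Fgf1, acidic FGF, binds all the FGF receptors and lies on chromosome 18. It fell in both sexes. Male WT held 31.5, 30.1, 30.1 and 32.9 CPM and Male KO 25.6, 23.3 and 23.2 CPM. Female WT held 32.3, 31.2, 30.6 and 28.7 CPM and Female KO 27.3, 29.2, 26.8 and 26.6 CPM. The male groups were apart, and 1 Female KO library reached above the lowest of Female WT. The log2 fold change was -0.37 ± 0.058 in males (edgeR adjusted p = 7.58e-06) and -0.16 ± 0.053 in females (edgeR adjusted p = 0.0172). The female call was lost without the first Female WT library (edgeR adjusted p = 0.0693). The difference between the effects, 0.22 ± 0.078, was not called (edgeR adjusted p = 0.0567).

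The balance of the 2 scarcer ligands shifted with genotype in both sexes. Per exon length, the ratio of Fgf7 to Fgf2 within a library was 1.10 ± 0.195 (n = 4) in WT and 2.64 ± 0.485 (n = 3) in KO cells of males, and 2.14 ± 0.443 (n = 4) in WT and 4.10 ± 0.707 (n = 4) in KO cells of females. WT and KO libraries did not overlap within either sex. In males both genes moved, and in females Fgf7 alone of the pair was called. Over all libraries the mean levels in CPM per kb ran from Fgfrl1 and Fgfr1 through Fgf1 (5.24), Fgfr2 (3.76), Fgf7 (1.57), Fgfbp1 (1.33), Fgf2 (0.679), Kl (0.510) and Fgfr3 (0.0884) to Klb (0.0119).

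Females were compared with males within each genotype to place the 4 groups relative to each other. These comparisons use the same libraries as those of KO against WT, so they are not separate evidence. In WT cells 6 of 9 members were called, 3 higher and 3 lower in females, against 28.6% of all genes tested (12.6% higher and 16.0% lower). The libraries did not overlap for 6 of 9, against 27.5% of all genes tested. Kl (log2 fold change 0.62 ± 0.12, edgeR adjusted p = 1.02e-04), Fgfr2 (0.51 ± 0.050, edgeR adjusted p = 4.08e-10) and Fgf7 (0.45 ± 0.14, edgeR adjusted p = 0.0117) were higher in Female WT. The Fgf7 call was lost without the third Female WT library (edgeR adjusted p = 0.0624). Fgfbp1 (-0.88 ± 0.18, edgeR adjusted p = 2.52e-04), Fgf2 (-0.50 ± 0.12, edgeR adjusted p = 0.00131) and Fgfr1 (-0.33 ± 0.034, edgeR adjusted p = 1.49e-09) were lower.

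In KO cells 5 of 9 members were called, 2 higher and 3 lower in females, against 9.20% of all genes tested (4.94% higher and 4.26% lower), and 5 of 9 did not overlap, against 19.2%. Fgfbp1 was lower in Female KO than in Male KO by 0.90 ± 0.15 (a log2 fold change of -0.90, edgeR adjusted p = 4.55e-05), and Fgf7 was higher by 0.83 ± 0.13 (edgeR adjusted p = 1.22e-05). Kl and Fgfr2, which were higher in females among WT cells, were lower in females among KO cells, at -0.59 ± 0.18 (edgeR adjusted p = 0.0341) and -0.19 ± 0.060 (edgeR adjusted p = 0.0381). Fgf1 was higher at 0.19 ± 0.059 (edgeR adjusted p = 0.0330). These last 3 calls each depended on single libraries. That of Kl was lost without any 1 of the 3 Male KO libraries or of the first 2 Female KO libraries (edgeR adjusted p = 0.0519 to 0.222).

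A fit of counts summed per pool treats the 4 pools as the units and leaves 1 residual degree of freedom. In it edgeR called 0 of the 9 members for KO against WT over both sexes, with 5 at an unadjusted p below 0.05, whereas DESeq2's Wald test called 3. Over all 15333 genes of this fit edgeR called 8, or 0.0522% (0.00652% higher and 0.0457% lower). Fgfbp1 changed by 1.09 ± 0.15 (edgeR adjusted p = 0.0939), Fgf7 by 0.77 ± 0.15 (edgeR adjusted p = 0.112) and Kl by -1.32 ± 0.29 (edgeR adjusted p = 0.133). Fgfr2 changed by -0.58 ± 0.16 (edgeR adjusted p = 0.174) and Fgf1 by -0.26 ± 0.075 (edgeR adjusted p = 0.188).

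Other ligands of the family were few. Of 18 FGF ligands, 6 were tested, namely Fgf1, Fgf2, Fgf7, Fgf9, Fgf18 and Fgf21. Fgf23, the hormone ligand of α-Klotho, had at most 1 count in any library. Fgf21, a metabolic hormone whose co-receptor is β-Klotho, had group means of 3.40 ± 0.459 CPM in Male WT, 2.19 ± 0.222 in Male KO, 7.72 ± 0.853 in Female WT and 2.74 ± 0.442 in Female KO. It fell by 0.64 ± 0.16 on the log2 scale in males (edgeR adjusted p = 0.00403) and by 1.50 ± 0.13 in females (edgeR adjusted p = 1.11e-11). Fgf9 fell by 0.44 ± 0.13 in females (edgeR adjusted p = 0.00584). With the members, 1 of the 6 rose and 3 fell in either sex, where 10.1% of all genes tested fell in males and 18.6% in females. The median was -0.32 in males and -0.07 in females. Of 4 intracellular FGF homologous factors, which stay in the cell and bind sodium channels, 3 were tested. Fgf13 rose by 0.55 ± 0.12 in males and 0.66 ± 0.13 in females (edgeR adjusted p = 9.82e-04 and 8.61e-05), Fgf11 fell by 0.63 ± 0.17 in females (edgeR adjusted p = 0.00291), and Fgf12 fell by 1.05 ± 0.34 in males (edgeR adjusted p = 0.0240). Fgf12 also passed the test in females, where the count of lower genes in this list was 1 in place of 2 without the first Female WT, the second Female KO or the fourth Female KO library, and its male call was lost without the first Male WT or the first or second Male KO library (edgeR adjusted p = 0.0774 to 0.130).

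Among 9 FGF carriers and receptor partners, of which 8 were in the table and tested, 3 rose and 2 fell in each sex, where 20.2% of all genes tested were called in males and 39.3% in females. Flrt3, a membrane protein that binds FGF receptors, fell in females from 18.3 ± 1.5 to 8.53 ± 0.969 CPM, a log2 fold change of -1.09 ± 0.081 (edgeR adjusted p = 5.13e-13). Its male change was 0.02 and was not called (edgeR adjusted p = 0.927). Flrt2 and the neural cell adhesion molecule Ncam1, which also binds FGFR1, took the same directions as Fgfr1. Flrt2 changed by -0.33 ± 0.060 in males and 0.26 ± 0.055 in females, and Ncam1 by -0.28 ± 0.039 and 0.22 ± 0.036 (edgeR adjusted p from 3.12e-06 to 0.00139). The cadherin Cdh1 rose by 0.21 ± 0.025 in males (edgeR adjusted p = 6.73e-08) and was not called in females (edgeR adjusted p = 0.0905). Cdh2 rose by 0.11 ± 0.027 in males and fell by 0.09 ± 0.025 in females (edgeR adjusted p = 0.00243 and 0.00350). The receptor Fgfr4 was at group means of 0.94 to 2.04 CPM and was not called in either sex.

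Downstream of the receptors, the 21 genes of the adaptor and RAS to ERK relay had medians near 0, at 0.00 in males and 0.03 in females. In males 3 rose and 2 fell, and in females 6 rose and 1 fell, or 3 and 2 when libraries were scaled by size only. Of all genes tested 10.1% rose and 10.1% fell in males, and 20.7% rose and 18.6% fell in females. Among the small GTPases, Hras rose by 0.21 ± 0.048 in males and 0.24 ± 0.045 in females (edgeR adjusted p = 0.00111 and 5.50e-05), and Nras rose by 0.16 ± 0.029 in males and 0.21 ± 0.027 in females (edgeR adjusted p = 7.54e-05 and 1.13e-07). Frs3, an adaptor of the FGF receptors, fell by 0.36 ± 0.12 in females, a call that was lost without the fourth Female KO library (edgeR adjusted p = 0.0196 with it and 0.0660 without). In males the adaptor Gab2 fell by 0.17 ± 0.047 and the kinase Map2k1 by 0.13 ± 0.032 (edgeR adjusted p = 0.00713 and 0.00320).

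Feedback regulators and targets of FGF and ERK signalling rose in larger numbers in females. Of 17 tested, 5 rose and 2 fell in males, where the median was 0.08, and 11 rose and 1 fell in females, where the median was 0.29. The shares of all genes that rose were 10.1% and 20.7%, and other receptors also feed the ERK relay. The difference between the female and the male effect was called for 12 of the 17, with 11 more positive in females, where 9.76% of all genes tested were. Phlda1 rose by 0.82 ± 0.055 in females (edgeR adjusted p = 3.75e-09). The ERK phosphatase Dusp5 rose by 0.28 ± 0.048 in males and 0.75 ± 0.046 in females (edgeR adjusted p = 3.65e-05 and 4.47e-15). Cyclin D1 (Ccnd1) rose by 0.49 ± 0.037 in males and 0.67 ± 0.034 in females (edgeR adjusted p = 2.51e-10 and 5.81e-14). Its mean went from 829 to 1164 CPM in males and from 636 to 1009 CPM in females. Spry1, an antagonist of signalling by receptor tyrosine kinases, fell by 0.21 ± 0.034 in females (edgeR adjusted p = 6.54e-06). In males Dusp4 fell by 0.20 ± 0.040 and Spred2 by 0.14 ± 0.041 (edgeR adjusted p = 3.71e-04 and 0.0109). The Spred2 call was lost without the second Male KO library (edgeR adjusted p = 0.0706). In WT cells 9 of the 17 were lower and 2 higher in females than in males, from the same Female WT libraries, where 16.0% of all genes tested were lower and 12.6% higher.

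Heparan sulfate, the co-factor that FGFs bind at the cell surface, is carried by proteoglycans and shaped by sulfotransferases. Of 23 such genes tested, 7 fell in males and the other 16 were not called, and in females 12 fell, 1 rose and 10 were not called. The medians were -0.08 and -0.10, and the shares of all genes that fell were 10.1% and 18.6%. Hs6st2, a 6-O-sulfotransferase, fell by 0.69 ± 0.076 in males and 0.31 ± 0.070 in females (edgeR adjusted p = 1.64e-08 and 4.60e-04), and Sulf1, which removes 6-O-sulfate outside the cell, fell by 0.57 ± 0.044 in males (edgeR adjusted p = 3.96e-10). The glypican Gpc3 fell by 0.92 ± 0.22 in females and the sulfotransferase Hs3st1 by 0.40 ± 0.079 (edgeR adjusted p = 0.00139 and 9.62e-05). The syndecan Sdc3 rose in females by 0.37 ± 0.029 (edgeR adjusted p = 3.38e-12).

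The proteases that shed α-Klotho from the cell surface, Adam10, Adam17, Bace1 and Bace2, showed 1 called change, a fall of Bace1 by 0.12 ± 0.037 in males (edgeR adjusted p = 0.0183) that was lost without the third Male KO library (edgeR adjusted p = 0.184). Of all genes tested, 20.2% were called in males and 39.3% in females. Of 14 phosphate, calcium and vitamin D genes on which FGF23 and α-Klotho act, 8 were tested. The sodium-phosphate cotransporters Slc34a1 and Slc34a3 of the proximal tubule had at most 3 counts and 1 count in any library, and Cyp24a1, which inactivates vitamin D, had at most 2. In males 2 rose and 3 fell, and in females 2 rose and 2 fell, beside 20.2% and 39.3% of all genes tested that were called. The parathyroid hormone receptor Pth1r fell by 0.16 ± 0.040 in males and 0.23 ± 0.039 in females (edgeR adjusted p = 0.00295 and 1.24e-05). The phosphate carriers Slc20a1 and Slc20a2 rose by 0.22 ± 0.032 and 0.18 ± 0.034 in females, where the kinase Fam20c fell by 0.20 ± 0.045 (edgeR adjusted p from 1.04e-06 to 7.25e-04). In males Slc20a1 fell, with a log2 fold change of -0.10 (edgeR adjusted p = 0.0384). In males the scaffold Slc9a3r1 and Galnt3, which glycosylates FGF23, each rose by 0.19, and the vitamin D receptor Vdr fell by 0.25 ± 0.070 (edgeR adjusted p from 2.06e-05 to 0.00929). Without the first Male KO library the Vdr call was lost (edgeR adjusted p = 0.0802), and 1 gene of the list fell in males in place of 3.

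The splicing factors that choose between the epithelial and mesenchymal exons of Fgfr2 were all tested. Esrp1, which favours the epithelial exon, rose by 0.28 ± 0.037 in males and 0.10 ± 0.035 in females (edgeR adjusted p = 3.42e-07 and 0.0231), and Esrp2 fell by 0.17 ± 0.040 in females (edgeR adjusted p = 0.00102). Ptbp1 rose by 0.12 ± 0.026 in males and 0.23 ± 0.024 in females (edgeR adjusted p = 5.17e-04 and 7.03e-10). Rbfox2 fell by 0.11 ± 0.034 in males and rose by 0.15 ± 0.031 in females (edgeR adjusted p = 0.0137 and 3.08e-04), the former lost without the fourth Male WT or the first Male KO library (edgeR adjusted p = 0.0648 and 0.0662).

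**Figure D4:**
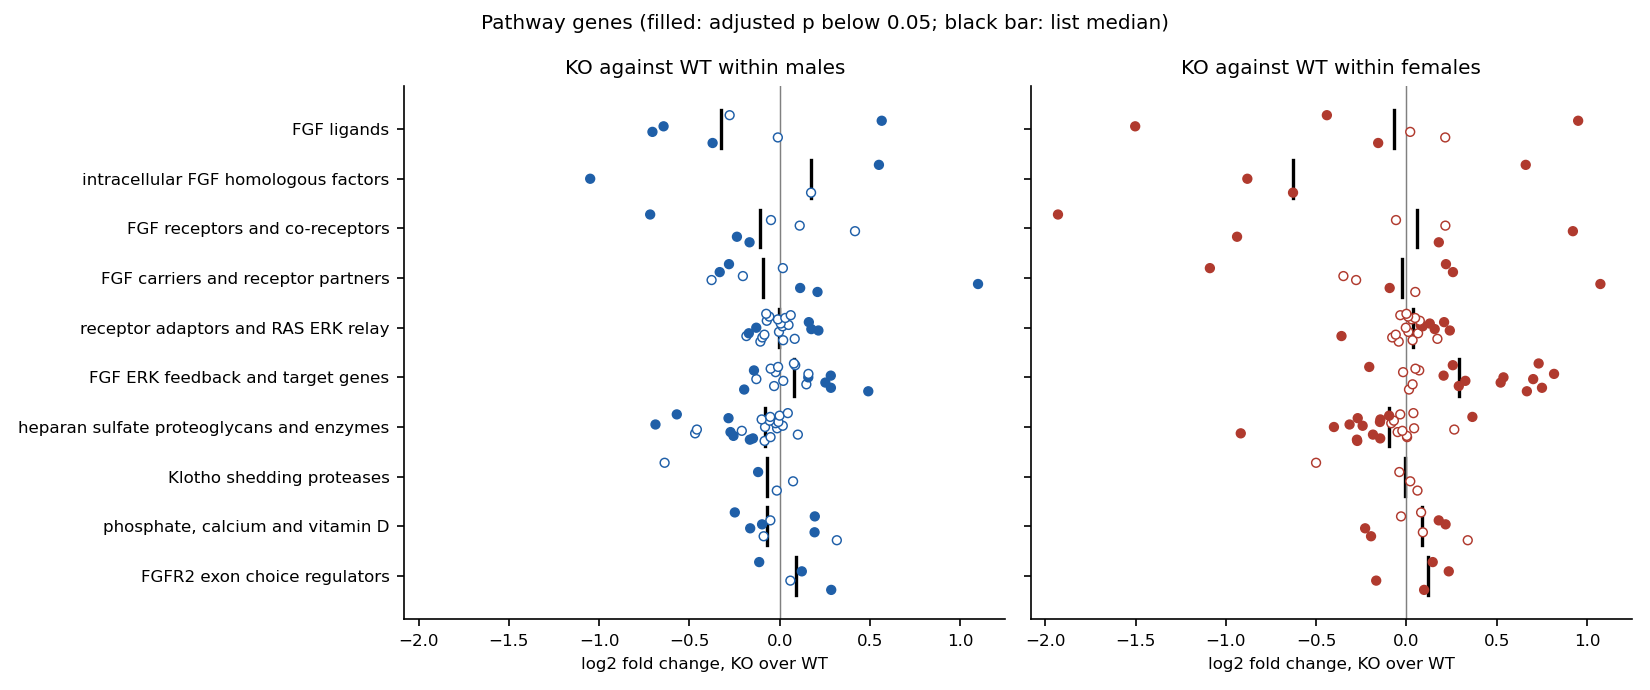
Log2 fold change of KO over WT (horizontal axis) for the tested genes of 10 pathway lists (rows) in males (left) and females (right). Each point is a gene, filled where its adjusted p was below 0.05, and the black bar is the median of the list. The feedback and target genes have a median of 0.08 in males and 0.29 in females, and Kl is the lowest point on the female side.

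Markers of other kidney cells differed between the groups as well, and their part in the values above was not tested. The summed level of 10 endothelial markers was 84.9 to 91.5 CPM in Male WT and 34.9 to 50.6 CPM over the other 3 groups. In males 9 of these 10 fell, and in females 2 rose, where 10.1% of all genes tested fell in males and 20.7% rose in females. Smooth muscle and pericyte markers fell for 8 of 9 tested in males, while in females 3 fell and 2 rose. Their sum was 3549 to 3921 CPM in Male WT and 2990 to 3067 CPM in Male KO. In Female WT it was 3846 to 3891 CPM, and in Female KO 3807 to 4397 CPM. Fibroblast markers fell for 7 of 9 in males and 6 of 9 in females, where the other 2 that were called rose. Among all genes tested in females, 18.6% fell. The sum of 18 proximal tubule markers was 159 to 166 CPM in Male WT and 149 to 158 CPM in Male KO. It was 193 to 212 CPM in Female WT, and 139 to 164 CPM for Female KO. It was highest in Female WT, as were Kl and Fgfr2. Gene by gene, 10 of these markers were tested, and in males 1 rose, 2 fell and 7 were not called. In females 2 fell and 8 were not called, so most of the list did not follow the sum. The shares of all genes tested that fell were 10.1% in males and 18.6% in females. The sum of 7 collecting duct markers was 38.9 to 44.4, 28.9 to 32.1, 34.5 to 40.5 and 28.9 to 33.7 CPM in Male WT, Male KO, Female WT and Female KO, with Aqp2, Aqp3 and Fxyd4 at 3 counts or fewer. The sum of 6 thick ascending limb markers was 7.68 to 10.3, 10.9 to 11.6, 14.8 to 17.7 and 10.6 to 13.4 CPM. Podocyte markers summed to 478 to 506, 407 to 444, 310 to 326 and 321 to 363 CPM, leukocyte markers to 17.8 to 20.2, 24.4 to 27.2, 25.0 to 29.0 and 33.6 to 38.2 CPM, and of 5 intercalated cell markers none was tested.

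**Figure D5:**
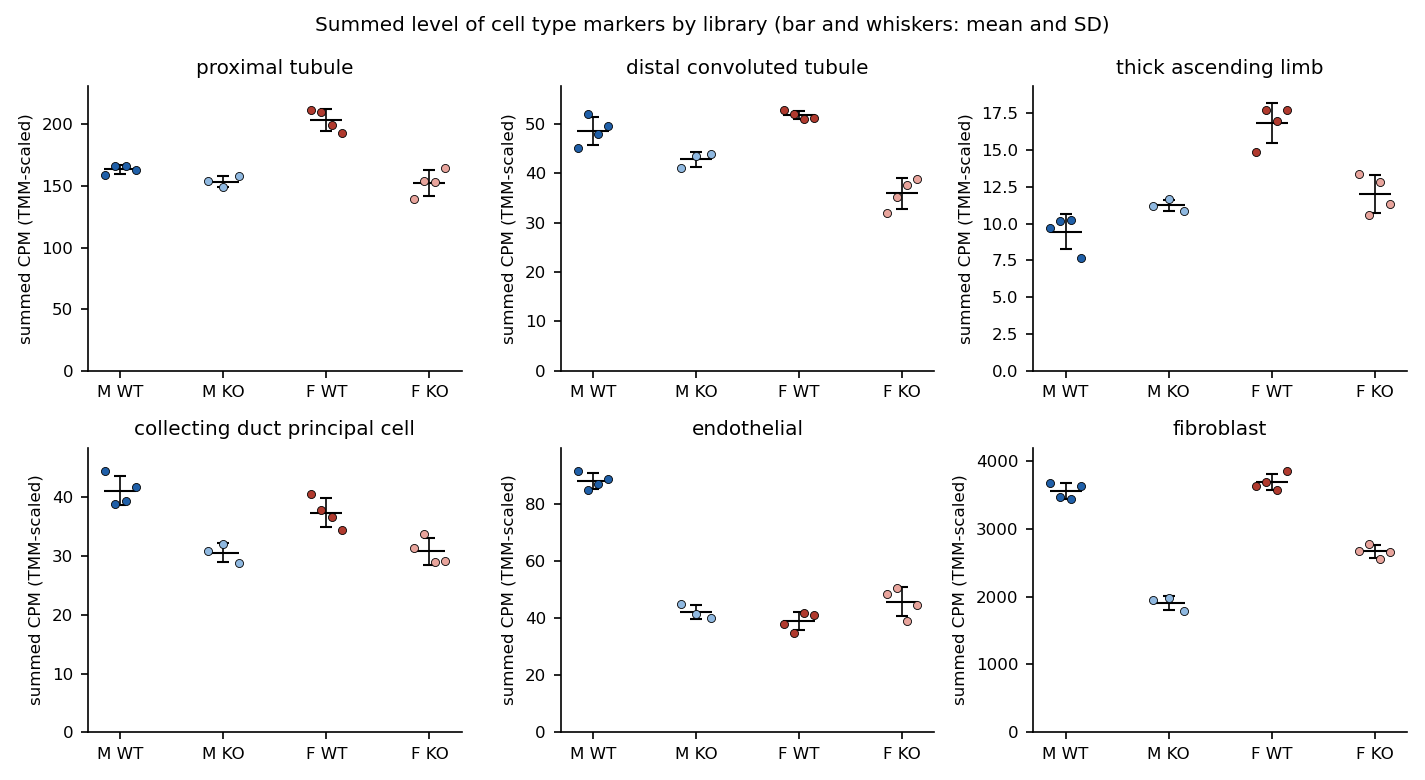
Summed TMM-scaled CPM (vertical axis) of the marker genes of 6 kidney cell types in each library, by group (M male, F female). Points are libraries, and the bar and whiskers are the group mean and SD. Distal convoluted tubule and proximal tubule markers are highest in Female WT, and endothelial markers in Male WT.

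The genes whose log2 CPM followed that of a member most closely over the 15 libraries were found among 10369 genes whose mean level reached 5 CPM. For Kl they were Thbs1 (Pearson r = 0.98), Slc22a23 (0.97) and Celsr2 (0.97). For Fgfr2 they were Plxna2 (0.98), Tmem178 (0.98) and Map2 (0.98). Thbs1, the matrix protein thrombospondin 1, fell by 0.24 ± 0.027 in males and by 0.48 ± 0.025 in females, and Plxna2, a semaphorin receptor, by 0.24 ± 0.044 and 0.65 ± 0.040 (edgeR adjusted p from 7.26e-17 to 9.52e-05). Fgfr1 was followed most closely by Coro2b (0.97), Fgfbp1 by Tubb2b (0.97), Fgf7 by Abracl (0.94) and Fgf2 by Pde2a (0.90). The 3 genes closest to Fgf1 encode matrix proteins, namely Col15a1 (0.95), Fbn1 (0.93) and Col1a2 (0.93). For Fgfr3 and Fgfrl1 no gene exceeded 0.85, reached by Snrnp35 and Eny2. These values describe likeness over libraries of only 4 pools and carry no test.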

How the data were processed

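RNA was measured in 15 libraries of 4 groups, each 1 pool of cultured cells split into technical replicates. Per the labels, Trizol and RNeasy columns gave the RNA, and the mRNA libraries kept strand. The authors deposited raw counts for gene symbols. The submitters' processing notes name STAR 2.6.1, featureCounts, mm10, edgeR 3.26.8 and limma 3.40.6. Which annotation and strand option the counting used is not given in the sources used here. CPM values, which the authors also deposited, equal each count over its library total and served only as a check.

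Tests were run in edgeR 4.0.16 (R 4.3.3), with limma 3.58.1 and DESeq2 1.42.0 for alternatives. Genes were kept by filterByExpr (minimum count 10), which left 13912 of 24421, and libraries were scaled by TMM. A robust quasi-likelihood model with 1 mean per group was fitted to all 15 libraries, 5 contrasts were tested, and Benjamini-Hochberg adjusted p-values were taken over all genes of a contrast. The standard error of a log2 fold change was derived from it and its F statistic. A second fit used counts summed per pool, with sex and genotype. Exon lengths, positions and overlaps are from GENCODE M21 (GRCm38), and promoter windows from RefSeq. The script was tested on simulated data.

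The members, gene lists and tests were chosen with earlier results of these data known. Named are all members and, from each pathway list, up to 2 called genes per direction and sex with the largest fold at a mean of at least 1 CPM. A gene that met this rule is not reported here. Depth was 17648416 to 30896637 counts per library, where 3 counts, the floor, are 0.0971 to 0.171 CPM. Floors cover counting error only. Alternatives were scaling by DESeq2's size factors, by the upper quartile or by library size only, DESeq2's Wald test, limma-voom, no filter or one of 5 CPM in 3 libraries, a model of just the compared groups, a replicate block, and omitting single libraries.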

Additional observations from a re-analysis of the deposited data

Results flagged for a closer look

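For 4 members the KO effect differed between females and males by the interaction term (log2, female minus male, edgeR adjusted p below 0.05). The values were -1.21 for Kl, 0.35 for Fgfr1, -0.70 for Fgfr2 and 0.73 for Fgf2.

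Among the other pathway genes named, the interaction passed for the ligand Fgf21 (-0.86) and for Fgf11 (-0.80), and for the partners Flrt3 (-1.11), Flrt2 (0.59), Ncam1 (0.50), Cdh2 (-0.21) and Cdh1 (-0.16). In the relay it passed for Gab2 (0.24) and Map2k1 (0.13). Among feedback and target genes it passed for Phlda1 (0.66), Dusp5 (0.47), Spred2 (0.21), Dusp4 (0.21), Ccnd1 (0.18) and Spry1 (-0.20). Among heparan sulfate genes it passed for Sulf1 (0.54), Sdc3 (0.42) and Hs6st2 (0.37). Of the phosphate and vitamin D genes these were Vdr (0.33), Slc20a1 (0.31), Slc20a2 (0.23) and Slc9a3r1 (-0.22). The splicing factors Rbfox2 (0.26), Ptbp1 (0.11), Esrp1 (-0.19) and Esrp2 (-0.23) were on the same list. In all, 39 pathway genes were checked, where 15.6% of all genes tested passed. They were picked for large called changes in males or in females, so the number that passed is not a result about the lists.

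In 5 cases 1 library stood apart from the other 3 of its group by Dixon's test, which chance gives in about 1 of 20 groups. It was run on 147 groups of 4, and not on Male KO, which has 3 libraries. Fgfr2 was at 35.6 CPM in the first Male WT library, with the next at 39.1, and at 31.6 CPM in the third Female KO library, with the next at 27.8. Map2k1 was at 111.7 CPM in the second Female KO library, with the next at 108. Sdc3 was at 222.0 CPM in the first Female WT library, with the next at 211. Vdr was at 20.4 CPM in the second Female KO library, with the next at 16.8. The calls of Fgfr2 for KO against WT in both sexes held without these libraries.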

How the results depend on the processing

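Leaving out each library in turn gave 6 to 7 members called for KO against WT in males and 6 to 7 in females, 4 to 5 for the interaction, 5 to 7 for females against males in WT and 2 to 5 in KO, where limma-voom gave 3. All genes called ranged from 2051 to 3052 in males and 4900 to 5183 in females, against 2808 and 5469 with all libraries. For the interaction they ranged from 1833 to 2335, against 2177. For females against males they were 3379 to 3845 in WT and 915 to 1199 in KO, against 3984 and 1280. Summed over pools, the members called were 0, with 3 under scaling by library size only, 3 with DESeq2's Wald test, 3 with no filter and 0 to 1 without single libraries. The genes called over pools were 8, with 404, 355 and 505 under those settings and 0 to 232 without single libraries. limma-voom, the 5 CPM filter, the block and the fit of only the groups compared were not run on the pools. The calls of Kl, Fgfr2 and Fgfbp1 for KO against WT within each sex kept their side of the threshold under all alternatives run.

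The effects that reversed were not called. Fgf2 in females was -0.017 with library size only and -0.070 to 0.099 without single libraries. The interaction of Fgfbp1 was 0.0075 with the replicate block and -0.15 to 0.090 without single libraries, and that of Fgfrl1 -0.049 to 0.029. For females against males without single libraries, Fgf1 ranged from -0.049 to 0.010 in WT, and in KO Fgfr1 from -0.0086 to 0.032, Fgfr3 from -0.36 to 0.030 and Fgfrl1 from -0.0054 to 0.064. Fgfr1 in KO was -0.0015 with library size only and -0.0020 with the block. Over pools, Fgfr1 was -0.0088 with upper quartile scaling, -0.017 with library size only, -0.0010 with no filter and -0.0086 to 0.022 without single libraries. The causes were not tested.

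The replicate numbers were not taken to pair the libraries. For this, the group mean of each gene was subtracted from log2 CPM, and the remaining deviations were correlated between libraries. Between same-numbered WT and KO libraries these deviations correlated at -0.0315 to 0.0684, and between differently numbered ones at -0.0616 to 0.0347. The highest value was that of the third Male WT and the third Male KO library. With the replicate block 7, 7, 5, 6 and 5 members were called in the 5 contrasts, and the interaction of Fgf1 was among them (edgeR adjusted p = 0.0389). Over all genes the block gave 3092 called for KO against WT in males and 5909 in females, against 2808 and 5469 without it. Scaling by library size only moved the share of called genes that were higher from 52.7% to 39.9% in females, from 62.4% to 46.2% for the interaction and from 44.1% to 55.2% for females against males in WT. Depth limits Klb and Fgfr3, and the single pool per group limits every comparison.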
